A study of Rattus norvegicus with 8 samples.

Results

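Timp1 (ENSRNOG00000010208 in the deposited table) encodes tissue inhibitor of metalloproteinases, a small secreted glycoprotein. It was followed here through 8 bulk RNA libraries of rat spinal cord as 1 of the 32883 Ensembl gene identifiers measured. Its transcript was counted 51 times over the 4 libraries of uninjured cord and 889 times over the 4 libraries of injured cord, which per UMI sequenced was 84.4 and 853 counts per 1000000. The gene was chosen by its difference between injured and uninjured cord in these same libraries, so that difference is described below without a test of its own. The identifier was paired with Timp1 in advance, because the RefSeq gene table used here matched 0 of the identifiers.

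All rats were Sprague Dawley, an outbred laboratory strain, and no age, sex or genotype was given. In the injured group (4 libraries) the cord was taken 4 days after a T9 hemisection, a cut across one side of the cord, at the level of thoracic segment 9. The other group (4 libraries) had no spinal cord injury, and the labels do not say whether those rats underwent sham surgery. The tissue is upper lumbar cord by the title of the series but upper spinal cord by the labels of its samples, and it is described as intact. Libraries of both groups carry numbers from 1 to 4, and nothing states that each library came from its own animal, so the spread between libraries may be partly technical. The labelled tissue could not be set against marker genes, because only Timp1 could be named.

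TIMP1 binds the catalytic site of active matrix metalloproteinases, the enzymes that cut collagens and other proteins of the extracellular matrix, and it also binds the precursor of MMP9. Apart from inhibiting proteases it acts on cells through surface proteins, CD63 among them. In the central nervous system its transcript is known to be inducible in astrocytes and other glia after injury and by inflammatory cytokines, while the related inhibitors TIMP2 and TIMP3 are more constant. The transcription factor AP-1 and the PEA3 members of the Ets family are known regulators of its promoter.

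The sequence before the start of Timp1 is printed because it is the one part of this gene's regulation that a reader can inspect beside the counts. RefSeq places it on the minus strand of the build GRCr8, at chrX:3771123-3771372. The 250 bases that lead up to the start, written in the direction of the gene, are the following, with the AP-1 variant TGAGTAA and both copies of the PEA3 motif AGGAAG in capitals.
Timp1 promoter: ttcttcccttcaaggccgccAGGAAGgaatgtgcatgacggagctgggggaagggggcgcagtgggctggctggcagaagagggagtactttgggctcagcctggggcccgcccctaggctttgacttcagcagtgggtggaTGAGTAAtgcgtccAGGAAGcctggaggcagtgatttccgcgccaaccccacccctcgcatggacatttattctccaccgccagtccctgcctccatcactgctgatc

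On either strand, TGAGTAA occurred at 1 place, 108 to 102 bases before the start, and AGGAAG at 2 places, 230 to 225 and 94 to 89 bases before it. Of 33469 RefSeq rat promoters searched over the same 250 bases, 2.38% held TGAGTAA and 29.5% held AGGAAG. Both motifs with starts at most 20 bases apart, as in Timp1, were found in 45 promoters (0.134%). TGAGTAA and this spacing were chosen after the sequence had been read. The Sp1 motif GGGCGG had 1 match in the Timp1 window, on the opposite strand, and 30.5% of promoters held it. The AP-1 consensus TGANTCA (6.34% of promoters), the STAT motif TTCNNNGAA (7.67%), the Runx motif TGTGGT (14.5%) and the TATA box TATAAA (12.9%) had no match in these letters. No motif overlapped another. The window was 61.2% G and C, against a median of 51.2% over all promoters. These are matches of letters, and nothing in the libraries measures binding at them.

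In the RefSeq gene table the whole span of Timp1 lies within that of Syn1, the gene of the synaptic vesicle protein synapsin I, which is read from the other strand. The sources used here do not state whether counting used strand, so reads of Syn1 that fell on Timp1 exons, if any, cannot be told apart from Timp1.

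Libraries were made by CEL-Seq2, which copies the 3' end of each polyadenylated transcript and marks each molecule by a random base sequence, its unique molecular identifier (UMI). A value is therefore a number of tagged molecules and does not grow with transcript length. Library totals ran from 112264 to 221177 UMIs in uninjured and from 195113 to 320199 in injured cord, and the injured library was the deeper one in each number. Values are CPM, the UMIs of a gene in every 1000000 UMIs. They are scaled either to the library total (total CPM) or by the trimmed mean of M values over the 3073 genes tested (TMM), which sets the bulk of genes level between libraries (TMM CPM). TMM CPM count in every 1000000 UMIs of the tested genes, which held 87.6% to 90.9% of a library's UMIs. The scales thus differ in this divisor as well as in the TMM factor.

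Timp1 was detected in every uninjured library on few UMIs and was far more abundant in every injured one. Uninjured libraries 1 to 4 held 15, 6, 7 and 23 Timp1 UMIs, and injured libraries 1 to 4 held 214, 334, 148 and 193. Scaled to the library total, the uninjured values were 67.8, 53.4, 52.0 and 169 total CPM, with a mean of 85.6 ± 56.1 (SD, n = 4). The injured values were 784, 1043, 583 and 989 total CPM, with a mean of 850 ± 210 (SD, n = 4). Every injured library lay above every uninjured one, and the lowest injured value was still well above the value of uninjured library 4, the highest of its group. After TMM scaling the means were 909 ± 225 and 102 ± 73.2 TMM CPM (SD, n = 4), with 637 CPM in the lowest injured and 212 CPM in the highest uninjured library. In whole tissue, fewer or more cells of a type and less or more RNA per cell cannot be told apart.

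**Figure D1:**
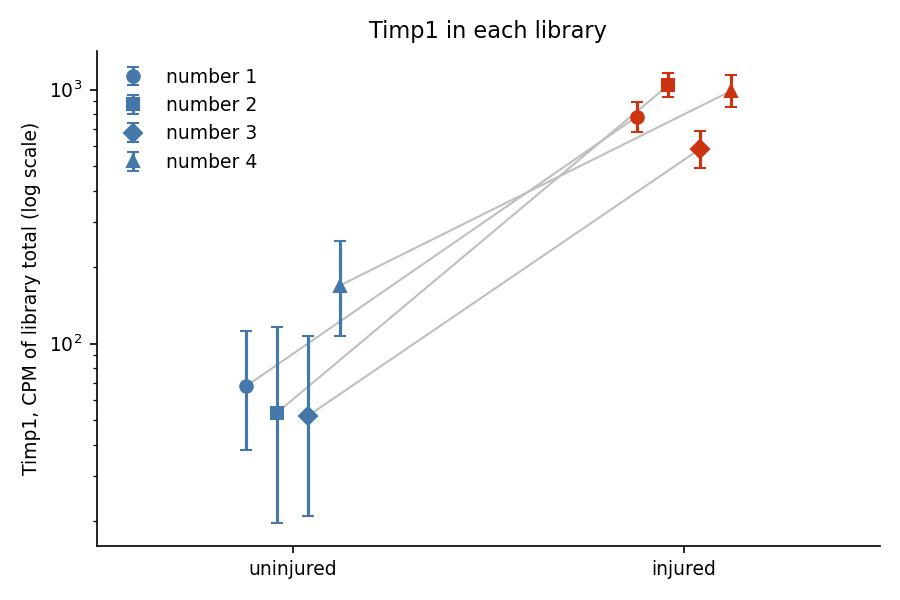
Timp1 UMIs scaled to the library total (CPM, vertical axis, log scale) in the 4 uninjured (blue) and 4 injured (red) libraries, with exact 95% binomial intervals for counting error and grey lines joining libraries of the same number. The injured libraries sit between 583 and 1043 total CPM and the uninjured ones between 52.0 and 169, with uninjured library 4 nearest to the injured group.

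The counts fix how finely the libraries can be ordered. Exact 95% binomial (Clopper-Pearson) intervals, which cover counting error only, ran from 19.6 to 116 total CPM in uninjured library 2, the widest relative to its value with 6 UMIs. In uninjured library 4 the interval ran from 107 to 254, and in injured library 3 from 493 to 685. From the lowest value upward the order was uninjured 3, 2, 1 and 4, then injured 3, 1, 4 and 2. Neighbours in this order had overlapping intervals at each step except the one from uninjured 4 to injured 3. Uninjured 1 (38.0 to 112) and 4 overlapped only at the ends of their intervals, as did injured 3 and 1 (683 to 897). Overlap alone does not show that libraries differ by no more than counting error. The intervals of uninjured 3, 2 and 1 overlapped widely, and TMM scaling exchanged uninjured 2 with 3 and injured 2 with 4. Within the injured group, the interval of library 3 ended below those of library 4 (855 to 1139) and library 2 (934 to 1161), so these differed by more than counting error.

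The spread of Timp1 within the uninjured group rested on library 4. By library total, the highest uninjured library was 3.25 times the lowest and the coefficient of variation was 65.6%, against 1.79 times and 24.7% in injured cord. Without library 4 the uninjured figures were 1.30 times and 15.1%, below those of the injured group, so the order of the groups turned on this 1 library. The remaining values rest on 15, 6 and 7 UMIs, and dropping the most extreme value narrows a spread by itself. Which group varied more is thus not settled. The uninjured values also carry the larger counting error, with 6 to 23 UMIs per library. Library 4 lay apart from the rest of this group, and its TMM-scaled value of 212 CPM was 3.22 times the mean of the other uninjured libraries, which lay between 61.8 and 71.6 CPM. Over all tested genes the median of the same ratio was 0.974, and 25 genes (0.814%) other than Timp1 had a ratio at least as large. Library 4 was picked because Timp1 peaked in it, and other genes were not read at their own highest uninjured library. The share therefore makes Timp1 look rarer than such a reading could. In the 65 other genes called higher after injury, library 4 had a median ratio of 1.26 to the mean of the other uninjured libraries. In 27 of the 65 (41.5%) library 4 was the highest of the uninjured libraries, as it was in 29.9% of all tested genes. Library 4 was of middle depth, with 135994 UMIs, and what set it apart was not tested.

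Read number by number, Timp1 was higher in the injured library of all 4 pairs. The ratio of shares was 11.6 in pair 1 (exact 95% interval for counting error 6.86 to 21.0), 19.5 in pair 2 (8.87 to 53.6), 11.2 in pair 3 (5.31 to 28.4) and 5.85 in pair 4 (3.79 to 9.45). Pair 2 had the largest and pair 4 the smallest ratio. All of these intervals overlapped one another, those of pairs 2 and 4 only between 8.87 and 9.45. Such overlap does not show that the ratios are alike within counting error. As a difference of levels the order was another one: Timp1 gained 716, 990, 531 and 820 total CPM in pairs 1 to 4. Pair 4 thus had the smallest ratio and the second largest gain, on its higher uninjured level. In a single random thinning to 112264 UMIs per library, uninjured libraries 1 to 4 kept 9, 6, 4 and 16 Timp1 UMIs. The injured ones kept 101, 99, 74 and 122. The ratios at equal depth were 11.2, 16.5, 18.5 and 7.63. Pair 4 was again lowest, while pair 3, resting on 4 uninjured UMIs, moved to the highest place. Another draw could order the pairs differently. A rise in all 4 pairs was found for 14.9% of tested genes, and every injured library above every uninjured one for 5.53%.

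**Figure D2:**
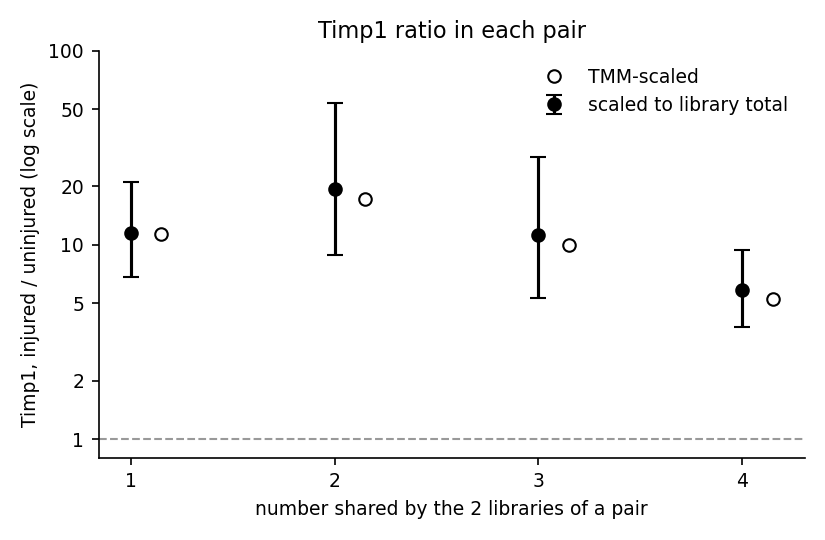
Ratio of Timp1 in the injured to the uninjured library (vertical axis, log scale) for each shared number, scaled to library totals (filled, with exact 95% intervals for counting error) and TMM-scaled (open). All ratios lie above 1, from 5.85 in pair 4 to 19.5 in pair 2 by totals, and the intervals overlap, those of pairs 2 and 4 only at their ends.

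Among all genes the change of Timp1 was one of the largest. In the edgeR fit over the 3073 genes tested its log2 fold change was 3.17 (SE 0.35), a 9.02-fold higher level in injured cord, against a median of -0.03 over all tested genes. With the shared number as a block it was 3.20 (SE 0.21). Without the block 66 genes (2.15% of those tested) were higher at an adjusted p under 0.05, and with the block 206 (6.70%). Timp1 ranked 2nd by log2 fold change in both fits. The gene above it, ENSRNOG00000013057, had a log2 fold change of 3.41 (SE 0.50) on far fewer molecules, 12 to 72 UMIs per injured library. The 3 genes next below Timp1 had log2 fold changes of 2.93, 2.89 and 2.79, each within 2 SE of its own estimate from that of Timp1. Their order relative to Timp1 was thus within the error of the fit.

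Timp1 combined this ratio with a high level in injured cord. Its mean count over the 8 libraries was 118 UMIs, against a median of 22.8 over the tested genes. The injured libraries made most of that mean, at 222 UMIs on average against 12.8 in the uninjured ones. A level over both groups therefore contains the rise itself. Of the 328 tested genes with a mean level at least that of Timp1 over both groups, 16 were called higher, and the largest log2 fold change among them was 2.25, a 4.75-fold difference. By mean TMM CPM, Timp1 moved from place 1766 of the 3073 tested genes in uninjured cord to place 157 in injured cord. Among the genes detected in each single library it held places 2313, 2510, 2457 and 864 in uninjured libraries 1 to 4 and places 167, 119, 248 and 138 in injured libraries 1 to 4. Each is the best place of a tie, shared with 126, 337, 277 and 29 other genes in uninjured libraries 1 to 4. In injured libraries 1 to 4 the ties held 6, 0, 3 and 0 other genes. Places also depend on the number of genes detected, 7750 to 10198 per library. Timp1 exceeded between 63.3% and 88.8% of the genes detected in uninjured libraries and between 97.4% and 98.8% of those in injured ones. Its mean gain of 806 TMM CPM was the 11th largest of all tested genes and made up 3.15% of the summed gain of the 66 genes called higher.

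**Figure D3:**
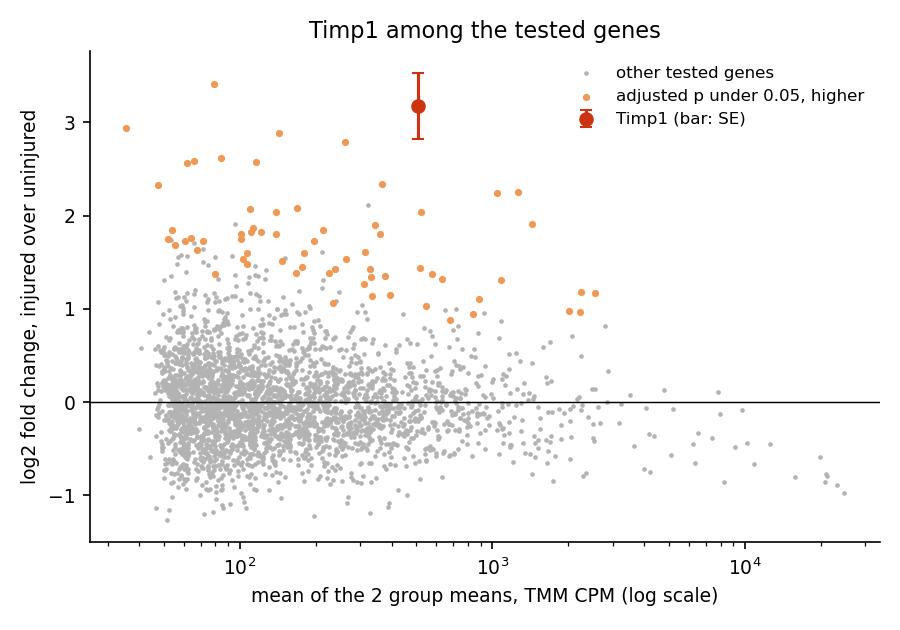
Log2 fold change of injured over uninjured cord (vertical axis) against the mean level in TMM CPM (horizontal axis, log scale) for the 3073 tested genes, with the 66 called higher in orange and Timp1 in red with its SE. Timp1, at 3.17, is above each of the 328 genes that are at least as abundant over both groups, a level that contains the rise of Timp1 itself.

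The genes whose levels followed Timp1 most closely over the 8 libraries were also genes that were higher after injury. Likeness was measured as Pearson's r of log2 TMM CPM with a prior count of 2, and is given as a description, since the gap between the groups dominates it and all points share library depth. Of 3072 genes compared, 50 (1.63%) had an r over 0.9, and the 10 most like Timp1 had r from 0.94 to 0.97. These 10 had log2 fold changes from 1.03 to 2.93, with a median of 1.97, all below that of Timp1. The closest, ENSRNOG00000011821, had an r of 0.97, with 243, 258, 448 and 507 TMM CPM in uninjured libraries 1 to 4 and 1605, 1981, 1295 and 1972 TMM CPM in injured libraries 1 to 4. Like Timp1 it was highest in library 4 of the uninjured group and lowest in library 3 of the injured group. In 8 of the 10 genes, library 4 was the highest uninjured library, as in 29.9% of all tested genes, but selection by r to Timp1, which peaks there itself, favours such genes. With Spearman's rho in place of r, which ignores the size of the gap between groups, 1 of the 10 genes stayed among the 10 most alike, so the selection rests on the measure used.

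**Figure D4:**
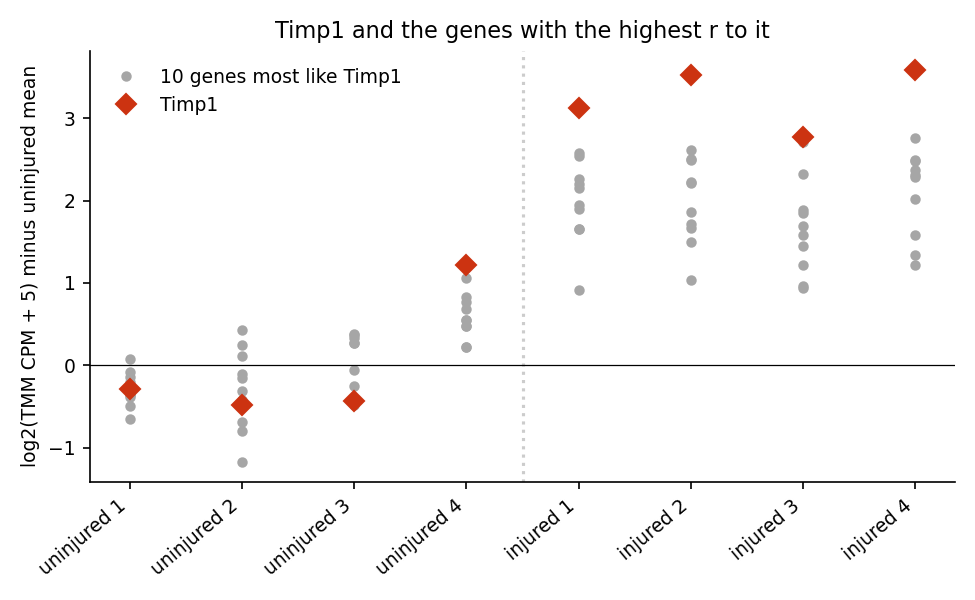
Log2(TMM CPM + 5) minus the mean of the uninjured libraries (vertical axis) in each library for Timp1 (red diamonds) and the 10 genes with the highest r to it (grey points). Timp1 has the largest gap between groups, and in uninjured library 4 it lies above its uninjured mean, as the grey points do.

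Deviations from the group means, which leave out the difference between groups, gave other genes. The 5 genes with the highest r of deviations to Timp1 had r from 0.93 to 0.99, and 0 of them were among the 10 above. Their log2 fold changes after injury ran from -0.22 to 1.13. Each was highest in library 4 within the uninjured group, which the selection favours, since the largest deviation of Timp1 lies there. Such r values are also the extreme of 3072 genes compared over 8 libraries. The 65 other genes called higher had a median r of deviations of 0.31, against 0.01 over all genes.

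Timp1 was higher in injured cord in every alternative fit, by an amount that moved with the choices. Under 20 alternatives its log2 fold change ran from 2.98 to 3.75, a 7.89-fold to 13.5-fold difference. Both ends came from leaving out an uninjured library: 2.98 without uninjured library 1 and 3.75 without library 4, in which Timp1 was high. Scaling to the summed UMIs of the tested genes alone, without TMM, gave 3.34, DESeq2 3.18 and limma-voom 3.30. No Timp1 count approached the number of tags: with the 4096 tags that 6 bases allow, an assumed tag length, correction for molecules sharing a tag raised the 334 UMIs of injured library 2 to 348 and left the uninjured counts as they were. The log2 fold change was then 3.21, with every gene corrected alike. The most abundant gene of each library did come close to 4096, with between 3727 UMIs (injured library 1) and 4047 UMIs (injured library 2). Whether tags limited the counts of such genes, and with them the library totals behind total CPM, was not tested.

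**Figure D5:**
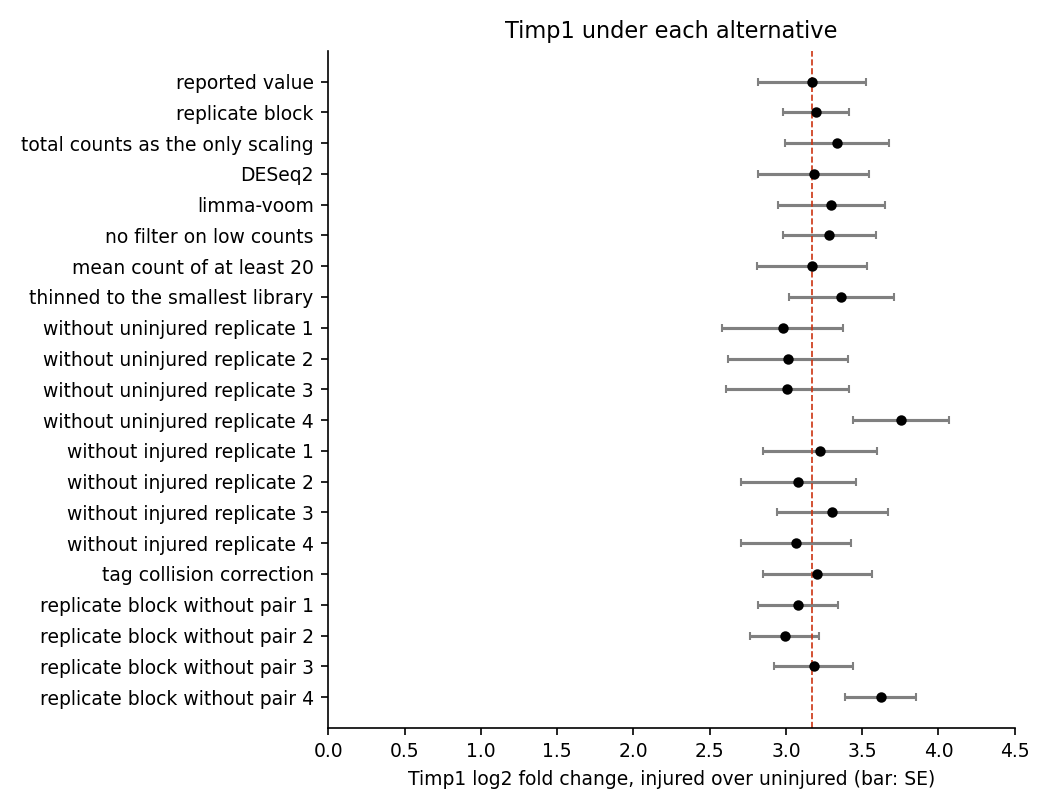
Timp1 log2 fold change of injured over uninjured cord (horizontal axis) with its SE in the reported fit and in each of 20 alternatives. The dashed line marks the reported 3.17, and the values without uninjured library 4 (3.75) and with the block without pair 4 (3.62) lie farthest from it.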

How the data were processed

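Per the labels' protocols, RNA was taken from flash-frozen cords and CEL-Seq2 libraries were run on an Illumina HiSeq1500. The authors deposited 1 table of UMI counts by Ensembl gene, without normalization. Per the submitters' processing notes the tools were HISAT2 2.0.4 and HTSeq 0.6.0, with the build Rnor_6.0. The sources used here do not give the annotation release, tag length or strand setting. Column codes were matched to sample titles, and 0 columns were left over.

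The fit used edgeR 4.0.16 in R 4.3.3 (filterByExpr with min.count 10 and min.total.count 15, TMM, estimateDisp, glmQLFit, glmQLFTest over all 8 libraries, Benjamini-Hochberg adjusted p below 0.05). SE was taken as the fitted change over the root of its F statistic. Alternatives used DESeq2 1.42.0 and limma 3.58.1. The edgeR script was tested on simulated data. Within groups, each pair of libraries differed beyond counting noise (chi-square over its degrees of freedom 2.21 to 4.91), and each library was kept. Same-number libraries deviated from their group means together (correlations over genes of 0.389, 0.297, 0.342 and 0.423, the highest for different numbers 0.241), so a fit with the number as a block is printed beside the fit without it. That the numbers mark pairs was judged from the data, and every set of genes called higher, unless named as with the block, comes from the fit without it.

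Timp1, the gene lists and the tests were chosen with earlier results of these data known. Genes to name were those of the TIMP, metalloproteinase, cytokine, astrocyte, matrix and cell type lists, the 10 genes most like Timp1 by r and 5 by deviations, and the 3 on each side of it in order of change. The lists go by symbol and were not analysed here, since 0 of 32883 identifiers matched the RefSeq table of GRCr8. For the same reason at most 2 other identifiers are printed.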

Additional observations from a re-analysis of the deposited data

Results flagged for a closer look

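In 4 of the 12 sets of 4 values examined, 1 value lay far from the other three; chance gives about 1 in 20, and the first 3 sets describe the same Timp1 count. Uninjured library 4 stood apart for Timp1 by library total (169 CPM, the others 52.0 to 67.8), for TMM-scaled CPM (212, the others 61.8 to 71.6) and for the place of Timp1 among detected genes (864, the others 2313 to 2510). Without that library the Timp1 log2 fold change was 3.75 in place of 3.17. The number of detected genes was 9168 in uninjured library 1, where the rest of that group had 7750 to 7983, and this library had the highest total of the group, 221177 UMIs. Without it the Timp1 log2 fold change was 2.98.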

How the results depend on the processing

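In all 20 alternatives the Timp1 log2 fold change stayed within 1 pooled SD (0.61) of 3.17. That SD is the spread of single libraries, including uninjured library 4, and is wider than the SE of the fit (0.35). It is thus a loose bound for a difference of group means, above all where only 1 library is left out. Of the alternatives, 15 were planned and 5 added after seeing the data (the tag correction and the fits without 1 pair). With the replicate block the log2 fold change was 3.20, and 2.99 to 3.62 when a pair was also left out. Counts of genes called depended more on the choices. Against 66 higher and 4 lower genes, edgeR called 206 and 145 with the replicate block and 190 and 9 without a filter on low counts. Scaled by the summed UMIs of the tested genes alone, it called 109 and 1. DESeq2 called 83 and 19, limma-voom 48 and 8, and edgeR at a mean count of at least 20 called 64 and 8, where the higher counts stayed within 1.5 times of 66 and the lower ones did not stay within that of 4. Fits that left out 1 library called between 35 and 100 genes higher and between 0 and 14 lower. For higher genes the count shifted by over 1.5 times without uninjured 1 (35), 2 (39) or 3 (35) and without injured 1 (40) or 4 (100). For lower genes it shifted in each such fit: 10, 1, 0 and 14 when an uninjured library (1 to 4) was dropped, 0, 1, 1 and 12 when an injured one was. In the fits with 0 lower genes, an unadjusted p under 0.05 was found by edgeR for 164 lower genes (uninjured 3 dropped) and 136 (injured 1 dropped), and limma-voom also called 0. Of the 10 genes most like Timp1, 1 stayed among the 10 with Spearman's rho. The cause of these shifts was not tested. Counts of list genes called were not run, since the lists could not be matched. Depth limits mainly the uninjured side, where Timp1 rests on 6 to 23 UMIs per library.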
